A study of Mus musculus with 2 samples.

Results

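The hairpins of the miR-130 and miR-148 seed families are 7 of the 1973 microRNA genes counted in the forebrain of newborn mice. They were chosen by name, as the members of both seed families in the mouse annotation. Mir130a, Mir130b, Mir301 and Mir301b make up the miR-130 family, which holds miR-130 and miR-301, and Mir148a, Mir148b and Mir152 the miR-148 family, which holds miR-148 and miR-152. Small RNA below 30 nucleotides was sequenced from 2 whole forebrains of strain B6NCrl, taken at postnatal day 0 from pup 1 and pup 3. No genotype change or treatment is named, and sex was not collected. The labels name separate pups but give the same donor record for both, and they form 1 group, so levels and their spread are described and no condition is compared. Pup 1 had 9037087 reads assigned to a microRNA gene and pup 3 had 7678662. A level is given as counts per 1000000 of these reads (CPM). Of the neural hairpins, Mir137 stood at 24345 CPM in pup 1 and 33595 CPM in pup 3, while the 3 Mir124a hairpins lay between 0.781 and 14.7 CPM. Reads with several mapping places were assigned to no gene, so counts of multi-copy hairpins such as Mir124a are uncertain and may be far too low. Of the Hox-cluster hairpins, which mark tissue behind the forebrain, Mir10b stood at 96.2 and 94.3 CPM, Mir10a at 83.9 and 47.5 CPM and Mir196b at 10.3 and 4.56 CPM.

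A microRNA is cut from a hairpin transcript, and 1 strand of the duplex, the guide, is loaded into an Argonaute protein. Bases 2 to 8 of the guide, the seed, pair with target messenger RNAs, so hairpins with the same seed can repress overlapping sets of transcripts. The miR-130 family is known for the repression of Pparg, a nuclear receptor of adipocyte formation, and Mir130a for a role in endothelial growth. The miR-148 family is known for the repression of Dnmt1, which maintains DNA methylation, and Mir148a is a prominent microRNA of liver.

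The guides are shown because the seeds of the families are shifted copies of each other. Sequences are those of RefSeq on GRCm38.p6, written 5′ to 3′ with the seed in capitals. All 7 hairpins and 6 of the guides were matched.
miR-130a-3p: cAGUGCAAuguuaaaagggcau
miR-130b-3p: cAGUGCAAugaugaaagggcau
miR-301a-3p: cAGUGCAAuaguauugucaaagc
miR-148a-3p: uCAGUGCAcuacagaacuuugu
miR-148b-3p: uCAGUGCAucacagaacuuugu
miR-152-3p: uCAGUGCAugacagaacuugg
For Mir301b, the hairpin is shown, with the same 7 bases in capitals.
Mir301b hairpin: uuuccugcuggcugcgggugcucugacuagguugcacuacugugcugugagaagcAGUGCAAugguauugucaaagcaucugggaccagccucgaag

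The seed AGUGCAA of the miR-130 guides and the seed CAGUGCA of the miR-148 guides had 6 bases in common, AGUGCA. In all 3 miR-130 guides shown, bases 1 to 7 spelled the miR-148 seed, so the families read the same run shifted by a single base. A site complementary to the first seed reads TTGCACT and to the second TGCACTG. With both counted from base 1, so that the shift is left in, 5 of 22 positions were equal between miR-130a-3p and miR-148a-3p, seed included.

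Within a family the guides differed at few positions. Counted from 1 at the 5′ end, miR-130b-3p differed from miR-130a-3p by U11A and A13G. miR-148b-3p differed from miR-148a-3p by C9U and U10C. miR-152-3p differed from miR-148b-3p by C10G and U20G over 21 bases. miR-301a-3p was further off, with 12 of 22 positions equal to miR-130a-3p. The guide lay on the 3′ arm of the hairpin in all 6. A count pools both arms, and the other arm has another seed, as in miR-130a-5p, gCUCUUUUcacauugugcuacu. The levels below are therefore those of hairpins and not of seeds.

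The members lie at 6 places in the genome (GRCm38). Mir130a (ENSMUSG00000065484.1) lies on the minus strand of chromosome 2 from 84741115 to 84741178, in no annotated host gene. Mir130b (ENSMUSG00000065572.1, chromosome 16, 17124061 to 17124142) and Mir301b (ENSMUSG00000076288.1, 17124400 to 17124496) both lie on the minus strand, with 257 bases between them. Each lies in an intron of 2610318N02Rik. Mir301 (ENSMUSG00000065589.1, chromosome 11, 87113004 to 87113089, plus strand) lies in an intron of Ska2, a gene of the kinetochore. The other family sits partly in genes of the COPI vesicle coat. Mir148b (ENSMUSG00000065560.1, chromosome 15, 103285125 to 103285221, plus strand) lies in an intron of Copz1. Mir152 (ENSMUSG00000065515.1, chromosome 11, 96850393 to 96850465, plus strand) lies in an intron of the paralog Copz2. Mir148a (ENSMUSG00000065505.1, chromosome 6, 51269812 to 51269910, minus strand) lies in no annotated host gene. Host transcripts were not measured here.

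The miR-130 family took 2.69% of assigned reads in pup 1 (95% Wilson interval 2.67 to 2.70) and 3.23% in pup 3 (3.21 to 3.24), a mean of 2.96% ± 0.382 (SD, n = 2). The miR-148 family took 0.0531% in pup 1 (0.0516 to 0.0546) and 0.0612% in pup 3 (0.0595 to 0.0630), a mean of 0.0571% ± 0.00576. In reads of the same library, the first family was 50.6 times the second in pup 1 (exact interval 49.2 to 52.1) and 52.7 times in pup 3 (51.2 to 54.2). Families with nearly the same seed thus stood 50.6 and 52.7 times apart. The intervals overlap, which is no test that the ratios were equal. These intervals cover counting error only.

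Mir130a had 204035 reads in pup 1 and 203811 in pup 3, which is 22578 and 26543 CPM. It was the 9th most abundant of all genes in pup 1 and the 7th in pup 3. Of its family's reads it took 84.1% in pup 1 (95% Wilson interval 83.9 to 84.2) and 82.3% in pup 3 (82.1 to 82.4). A single hairpin without a host gene therefore supplied most reads of the family in each pup.

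Mir130b stood at 2839.6 CPM in pup 1 and 3083 CPM in pup 3, from 25662 and 23672 reads. It took 10.6% and 9.56% of family reads. Mir301 stood at 1369 and 2537 CPM, from 12371 and 19484 reads, and its share of the family went from 5.10% (5.01 to 5.19) in pup 1 to 7.87% (7.76 to 7.97) in pup 3. Its CPM differed 1.85-fold between the pups, against 1.04-fold to 1.39-fold for the other 6 members, and its higher value still lay below the lower value of Mir130b.

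Mir301b stood at 67.2 CPM in pup 1 and 93.2 CPM in pup 3, from 607 and 716 reads. It took 0.250% and 0.289% of family reads, the lowest share in the family. Its neighbour Mir130b, in the same host gene, had 42.3 times as many reads in pup 1 (exact interval 39.0 to 45.9) and 33.1 times in pup 3 (30.7 to 35.7). Hairpins of the same host gene and strand thus differed by more than 30-fold in each pup. Its relative Mir301 had 20.4 times as many reads (18.8 to 22.1) in pup 1 and 27.2 times (25.3 to 29.4) in pup 3. Mir301 and Mir301b share an exact stretch of 16 bases. Over the 23 bases of miR-301a-3p, the Mir301b hairpin reads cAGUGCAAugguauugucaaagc and differs by a single base, g in place of a. The handling of mismatched reads is unknown, so reads of this stretch may have been placed at either hairpin or at none. The ratios of Mir130b and Mir301 to Mir301b rest on that placement, and its effect was not tested.

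Mir148a stood at 242.0 CPM in pup 1 and 293 CPM in pup 3, from 2187 and 2248 reads. Mir148b stood at 252 and 282 CPM, from 2280 and 2163 reads. These relatives were level, with means of 267.4 ± 35.9 and 267.0 ± 20.8 CPM (SD, n = 2). Mir148a over Mir148b was 0.959 in pup 1 (exact interval 0.904 to 1.02) and 1.04 in pup 3 (0.979 to 1.10), so both intervals held equality and the order turned between the pups. Mir152 stood at 36.4 and 37.8 CPM, from 329 and 290 reads. Mir148b had 6.93 times as many reads as Mir152 in pup 1 (6.17 to 7.80) and 7.46 times in pup 3 (6.60 to 8.46), and these intervals overlap. The Copz1 hairpin was thus well above the Copz2 hairpin in each pup.

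**Figure D1:**
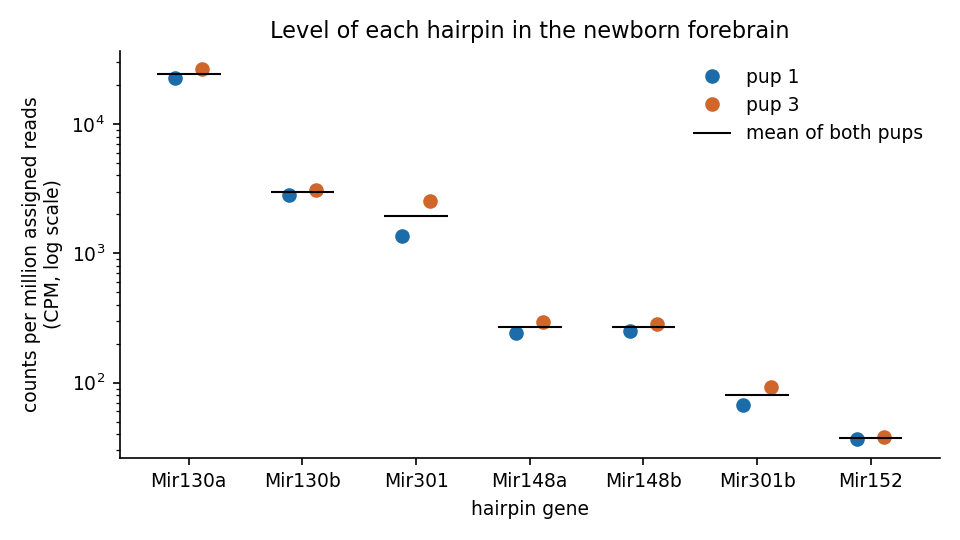
CPM (log axis) of the 7 hairpin genes, with a point for each pup and a line at the mean of both. Mir130a sits at 22578 and 26543 CPM, above all other members, Mir148a and Mir148b overlap near 267.4 and 267.0 CPM, and Mir152 is lowest at 36.4 and 37.8 CPM.

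**Figure D2:**
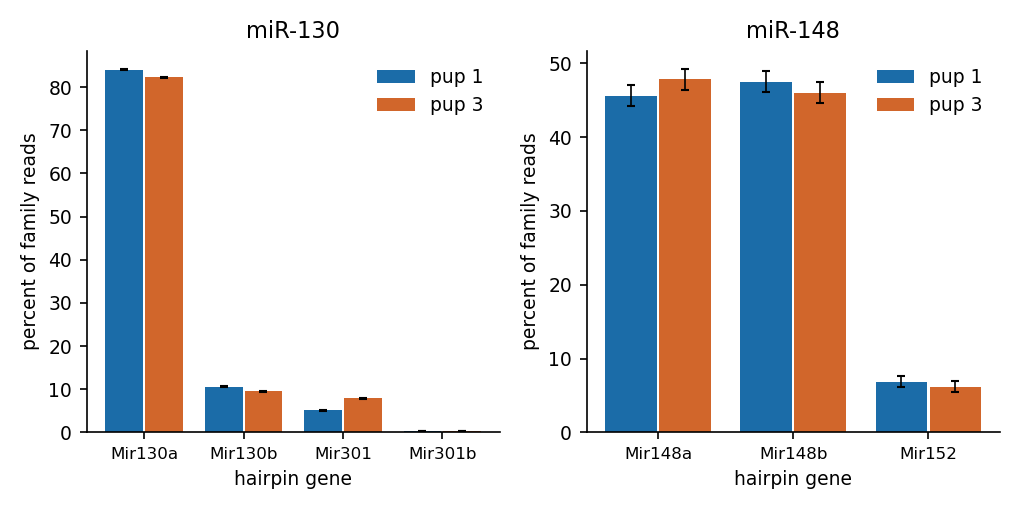
Share of each family's reads (percent) taken by each hairpin gene in each pup, with 95% Wilson intervals that cover counting error only. Mir130a takes 84.1% and 82.3% of its family, while Mir148a and Mir148b split most of theirs.

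By mean level the order was Mir130a (24560.0 ± 2804 CPM), Mir130b (2961 ± 172), Mir301 (1953 ± 826), Mir148a, Mir148b, Mir301b (80.2 ± 18.4) and Mir152 (37.1 ± 0.963; each SD, n = 2). In 5 of the 6 neighbouring pairs both pups of the higher gene lay above both pups of the lower, and Mir148a and Mir148b were the pair that overlapped. Reads of mature microRNAs have nearly the same length, but the hairpins run from 64 to 99 bases. Per base of hairpin, the means were 384 CPM for Mir130a, 36.1 for Mir130b, 22.7 for Mir301, 2.75 for Mir148b, 2.70 for Mir148a, 0.827 for Mir301b and 0.508 for Mir152. On this scale Mir148a and Mir148b changed places and the other 5 kept theirs. All 7 were among the 433 genes that reached 10 counts in both pups. Mir130b ranked 68th of all genes in pup 1 and 60th in pup 3, Mir301 95th and 68th, Mir148a 179th and 155th, Mir148b 176th and 158th, Mir301b 245th and 212th, and Mir152 271st and 264th. The GC content of the hairpins ran from 45.3% in Mir130a to 61.6% in Mir152.

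**Figure D3:**
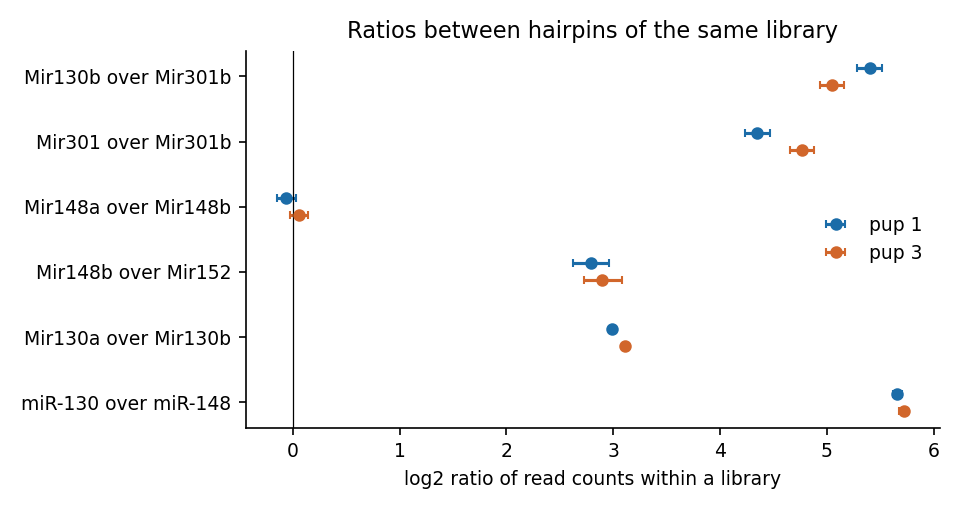
Log2 ratio of read counts between pairs of hairpin genes or families within a library, for each pup, with 95% exact intervals that cover counting error only. Mir148a over Mir148b lies at -0.06 in pup 1 and 0.06 in pup 3, with 0 inside both intervals, while Mir130b over Mir301b lies at 5.40 in pup 1 and 5.05 in pup 3.

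All 7 members had a higher CPM in pup 3. With libraries scaled by TMM, which matches most genes between libraries, Mir301 was 2.13-fold higher in pup 3 (95% exact interval 2.08 to 2.18). Mir301b was 1.59-fold higher (1.43 to 1.78), with an adjusted p of 7.4e-17 by the exact binomial test with Benjamini-Hochberg adjustment. Mir130a was 1.35-fold higher (1.34 to 1.36) and Mir130b 1.247-fold (1.23 to 1.27). In the other family Mir148a was 1.39-fold higher (1.31 to 1.47), Mir148b 1.28-fold (1.21 to 1.36) and Mir152 1.19-fold (1.01 to 1.40). The exact binomial test compares these 2 libraries against counting error and not conditions.

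By that test all 7 members were called higher in pup 3 and none lower. Over all 460 genes tested, 63.0% were called in either direction, 30.2% higher and 32.8% lower. Among the 267 genes at or above the mean level of Mir152, 89.1% were called and 44.2% were called higher, so a call alone is common at these read numbers. The call of Mir152 was marginal (adjusted p = 0.0494 by the exact binomial test) and was lost, with 6 members called, when only total counts scaled the libraries, where its log2 ratio was 0.05 (adjusted p = 0.725, exact binomial test). It was also lost on sense-strand reads (log2 ratio 0.23, adjusted p = 0.0773, exact binomial test) and without a minimum count (adjusted p = 0.0810, exact binomial test), while DESeq2 size factors and a minimum of 100 counts kept it (0.0408 and 0.0390). Under total counts, 32.2% of called genes were higher in place of 47.9%, as the median log2 ratio of the 310 genes whose mean reached 10 CPM moved from -0.03 to -0.23. The median of the 7 members, 0.43 under TMM and 0.23 under total counts, lay 0.47 above that median, a gap that scaling cannot change since it shifts all genes alike.

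These ratios were also set against the spread between pups. Over 301 genes, edgeR gave a biological coefficient of variation of 0.304, at which the log2 ratio of 2 pups has an SD of 0.62. This SD was fitted to the same 2 libraries, members included, so it is a description and not an outside yardstick. The log2 ratios of 5 members lay within that SD, from 0.25 for Mir152 to 0.47 for Mir148a. Mir301b lay at 0.67 and Mir301 at 1.09, beyond it, as did 97 of the 310 genes (31.3%). The median absolute log2 ratio of the 310 genes was 0.358. By absolute log2 ratio Mir301 ranked 28th among them, Mir301b 86th, Mir148a 125th, Mir130a 134th, Mir148b 155th, Mir130b 175th and Mir152 195th.

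**Figure D4:**
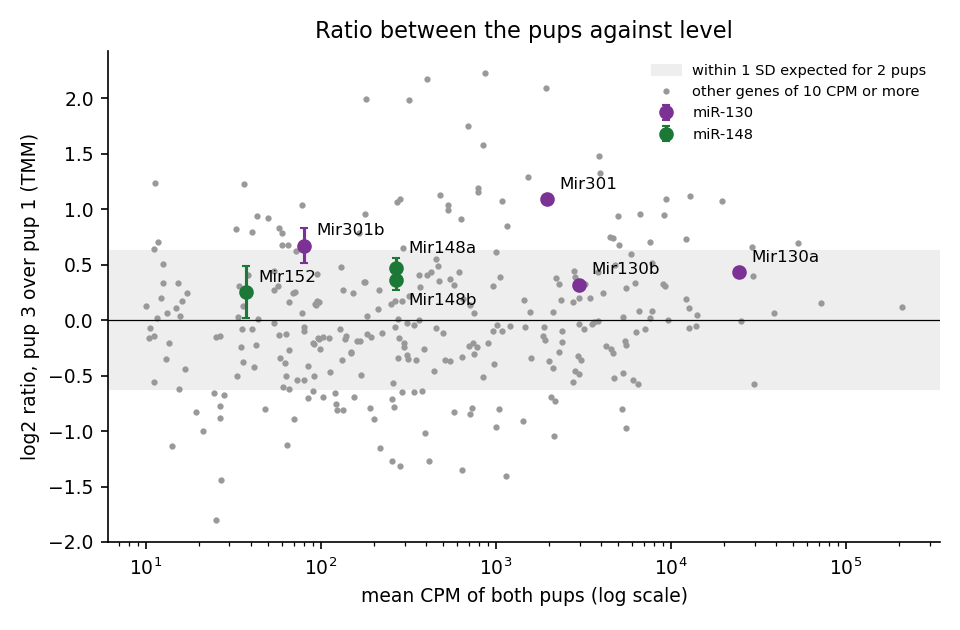
Log2 ratio of pup 3 over pup 1 (TMM scaling) against mean CPM (log axis) for the 310 genes whose mean reached 10 CPM. Members are coloured by family with 95% exact intervals for counting error, and the grey band is 1 SD of 0.62 on either side of 0. All 7 members lie above 0, and Mir301 at 1.09 and Mir301b at 0.67 lie outside the band.

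Other hairpins of the sample also differed between the pups. The 7 neuronal and forebrain hairpins of the marker list summed to 32379 CPM in pup 1 and 44040.4 CPM in pup 3. Mir137 made up most of that sum (24345 and 33595 CPM), and all but Mir124a-2 (2.21 and 0.781 CPM) were higher in pup 3. Endothelial Mir126a stood at 40491 and 36865 CPM. The mural hairpins Mir143 and Mir145a summed to 5826 and 5175 CPM, while erythroid Mir451a stood at 192 and 350.2 CPM and erythroid Mir144 at 36.3 and 19.8 CPM. Leukocyte Mir150 and Mir223 summed to 326 and 363 CPM, and liver Mir122 stood at 54.0 and 75.0 CPM and liver Mir192 at 114 and 89.7 CPM. The 4 Hox-cluster hairpins Mir10a, Mir10b, Mir196a-1 and Mir196b summed to 190.3 and 146 CPM, with Mir196a-1 at 0 in both pups. These levels are CPM without TMM scaling. Under TMM the log2 ratio of pup 3 over pup 1 was 0.06 for Mir126a, 0.03 for Mir143, 0.04 for Mir145a and 0.17 for Mir10b. Their lower CPM in pup 3 is thus not kept on that scale. The ratios of Mir10a, Mir196b, Mir144, Mir192 and Mir124a-2 stayed negative. The part of these markers in the members' ratios was not tested. In whole tissue, fewer cells of a type and less RNA per cell cannot be told apart.

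Outside the members, the RefSeq mature sequences searched held 4 with the miR-130 seed and none with the miR-148 seed. Sequences of a single chromosome were left out of this search. Of the 4 hairpins, Mir130c, Mir6341 and Mir6389 had 0 reads in each pup, and Mir721 was not found among the counted genes. A count of 0 allows up to 0.332 CPM in pup 1 and 0.391 CPM in pup 3, for counting error only. They are shown because the seed in capitals is that of miR-130a-3p, while only part of the bases after it differ. The longest match is in miR-6389, which follows the seed with uguuaaa as miR-130a-3p does.
miR-130c: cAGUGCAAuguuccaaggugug
miR-6341: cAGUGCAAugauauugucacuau
miR-6389: cAGUGCAAuguuaaacuuugc
The hairpins of Mir6389 and Mir130a share a stretch of 17 bases, the longest that any member shares with another hairpin of the table. Reads with several mapping places were assigned to no gene.

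Hairpins with a shifted form of the seed were present at a range of levels. The rule took mature sequences with GUGCAA or AGUGCA within bases 1 to 8, with the same chromosome left out. Mir350, whose miR-350-5p reads aAAGUGCAugcgcuuuggg, stood at 931 and 1002 CPM, between Mir301 and Mir148a. That count pools both arms of the hairpin, so the part from miR-350-5p is not known. Mir19a, of the proliferation-linked Mir17 polycistron, stood at 35.9 and 37.0 CPM, close to Mir152, and its miR-19a-3p reads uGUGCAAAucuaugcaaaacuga. Mir19b-1 stood at 6.64 and 10.8 CPM, Mir19b-2 at 2.21 and 3.91 CPM, and Mir291b at 0.332 and 0.130 CPM. Mir19b-1 and Mir19b-2 yield the same mature sequence, so their counts are uncertain.

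The gene nearest to each member in log2 CPM over the 2 pups was found by Euclidean distance, as a description only. It was Mir100 for Mir130a (26911 and 23342 CPM), at a distance of 0.31, and Gm24083 for Mir130b (2963 and 2965 CPM), at 0.08. For Mir301 it was Mirlet7c-2 (972 and 2075 CPM) at 0.57, the widest gap of any member to its nearest gene. For Mir301b it was Mir362 (61.6 and 82.6 CPM) at 0.21, and for Mir152 it was Mir19a at 0.04. Mir148a and Mir148b had the same nearest gene, Mir665 (267 and 261 CPM), at 0.21 and 0.13.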

How the data were processed

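The deposited values are raw counts for each microRNA gene, for which the notes beside the tables name assembly mm10 and annotation M4. Which aligner and counting tool the authors ran is not given in the sources used here. No column of the 3 per table has a heading, and the first, which equals the sum of the others in all 1973 genes, was used. The second was read as the sense strand. The 4 tallies without a gene name were left out of all totals and tests. In pup 1, 43.0% of reads mapped to several places, 14.9% were unmapped and 1.85% lay in no gene (43.5%, 14.4% and 1.26% in pup 3).

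Members were matched by identifier to GENCODE M21 (GRCm38), and sequences came from RefSeq. Ratios used counts with 0.5 added and TMM factors of edgeR 4.0.16. An exact conditional binomial test, two-sided, was run on every gene whose counts summed to at least 20, and p-values were adjusted over all of them by Benjamini-Hochberg, with 0.05 as the threshold. The test was checked on simulated counts with counting error only, so the check does not cover differences between pups beyond it. There it called 5 of 263 unchanged genes, 36 of 50 changed 1.25-fold and 48 of 50 changed 4-fold. The spread came from estimateDisp with an intercept-only design. Alternatives were DESeq2 1.42.0 size factors, total counts, sense reads, other minimum counts, another pseudocount and each pup alone. The genes named are the members, hairpins of the same or a shifted seed, hairpins within 10 kb, the gene nearest to each member and the tissue markers. The members and lists were chosen with earlier results of these data known. Software was R 4.3.3 and Python 3.11.15 with scipy 1.17.1, numpy 2.4.6, matplotlib 3.10.9 and pandas 2.3.3.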

Additional observations from a re-analysis of the deposited data

Results flagged for a closer look

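Opposite-strand reads were found at Mir130a, in a column that the levels do not separate: 9 reads in pup 1 and 4 in pup 3, above the 3 counts that a count of 0 allows. These were 44.1 and 19.6 per 1000000 of the Mir130a reads. Over all genes, the opposite strand held a far larger share, 2.69% of the assigned reads of pup 1 and 1.91% of those of pup 3.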

How the results depend on the processing

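Of 94 values recomputed under the alternatives, 90 stayed on their side of the threshold, within the spread between pups or, for counts, within 1.5 times. Part of these could not have come out otherwise. With n = 2, the value of either pup alone always lies within the SD of the mean. The pseudocount does not enter the test, so it cannot change a call. No called ratio between pups changed sign. Mir148a over Mir148b, which has no call, ranged from a log2 ratio of -0.06 to 0.06 with either pup left out, around -0.0022, and the members in the same place of the order fell from 7 to 5 with pup 3 left out and per base of hairpin. Mir152 lost its call, at a log2 ratio of 0.23 on sense reads (adjusted p = 0.0773, exact binomial test) and of 0.053 under total counts (0.725). As shares of all reads, the miR-130 family took 1.20% and the miR-148 family 0.0232%, since unassigned reads enter the denominator. The number of genes called ranged from 276 to 304. With either pup left out there is no ratio between pups, and the miR-130 share ranged from 2.69% to 3.23%. No paired analysis was possible because the samples form 1 group. The fewest reads of a member in a pup were 290, for Mir152, which limits the precision of its ratio.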
